A study of Mus musculus with 8 samples.

Results

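The classical complement genes and regulators described here are the genes for the 3 chains of C1q (C1qa, C1qb and C1qc), the C1r protease (C1ra), components C4b, C2 and C3, and the inhibitors Serping1 and Cd59a. They were chosen by gene symbol, and all 9 were found among the 25834 genes of the count table of male mouse hippocampus. The study compared SAP97-cKO mice (Nestin-cre+/-; SAP97fl/fl), in which both alleles of the scaffold protein gene SAP97 (Dlg1) are floxed and Cre is driven by the Nestin promoter, with littermate controls. Controls could be Nes-cre+/-, SAP97fl/fl or wild-type, and no source used here says which of these genotypes each control library had. There were 4 control and 4 SAP97-cKO libraries, 1 per mouse, and the age of the sequenced mice was likewise not stated.

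Complement is a cascade of secreted proteins. In the classical pathway C1q binds a target and activates the proteases C1r and C1s, which cleave C4 and C2 into an enzyme that cleaves C3. In the brain, microglia are the main source of C1q, C1q and C3 tag synapses for removal by microglia, and variation at the human C4 locus is linked to schizophrenia risk. SERPING1, the C1 inhibitor, stops C1r and C1s, while CD59 blocks the terminal pore at the cell surface.

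The C1q chains, the most abundant of the 9 transcripts, had nearly equal means in the groups. Serping1 fell to 49.0% and C2 to 35% of the control mean, and these were the 2 of 9 genes past the false discovery rate (FDR) of 0.25 that the study used, against 0.283% of all 16251 genes tested that were called lower and 0.0123% called higher. No gene of the 9 was called higher. At an unadjusted p under 0.05 from edgeR, C4b, C3 and Cd59a joined them, which made 5 of 9 lower against 7.01% of all genes, and 0 of 9 higher against 4.73%. All 9 log2 fold changes were below 0, with a median of -0.47, while 52.8% of all genes were below 0 and the median of all genes was -0.01. The 9 genes were chosen with earlier results of these data known, so these shares describe them and are not a test of the pathway.

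The libraries were alike in depth, with 37388177 to 37426572 counts each, because the study had resampled reads to equal numbers. Dlg1, the targeted gene, stood at 4337 ± 336 normalized counts (SD, n = 4) in the 4 controls and at 2392 ± 470 (SD, n = 4) in SAP97-cKO, without overlap between the groups. Its log2 fold change was -0.86, with a standard error (SE) of 0.12 and an edgeR adjusted p of 0.143. This count covers the whole gene and not only the deleted part. Hippocampal markers were present in every library, at a summed 38574 to 54076 normalized counts in controls and 37178 to 58658 in SAP97-cKO. In such bulk tissue, fewer cells of a type and less RNA per cell cannot be told apart. Markers of tissue that borders the hippocampus differed between libraries. The 18 meningeal fibroblast markers all had a log2 fold change below 0 (7 of 18 past the FDR of 0.25, median -1.14). Of these, 15 were at an unadjusted p under 0.05 in edgeR, against 7.01% of all genes lower, while Dcn was nearly unchanged at -0.008 (unadjusted p = 0.986 in edgeR). The 14 choroid plexus markers summed to 6811 to 261604 normalized counts in controls and 3940 to 90051 in SAP97-cKO. All 14 had a log2 fold change below 0 (median -1.42), and 0 were at an unadjusted p under 0.05 in edgeR. No gene of either list was at 0 in any library, and their values stand beside the complement genes that they moved with.

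**Figure D1:**
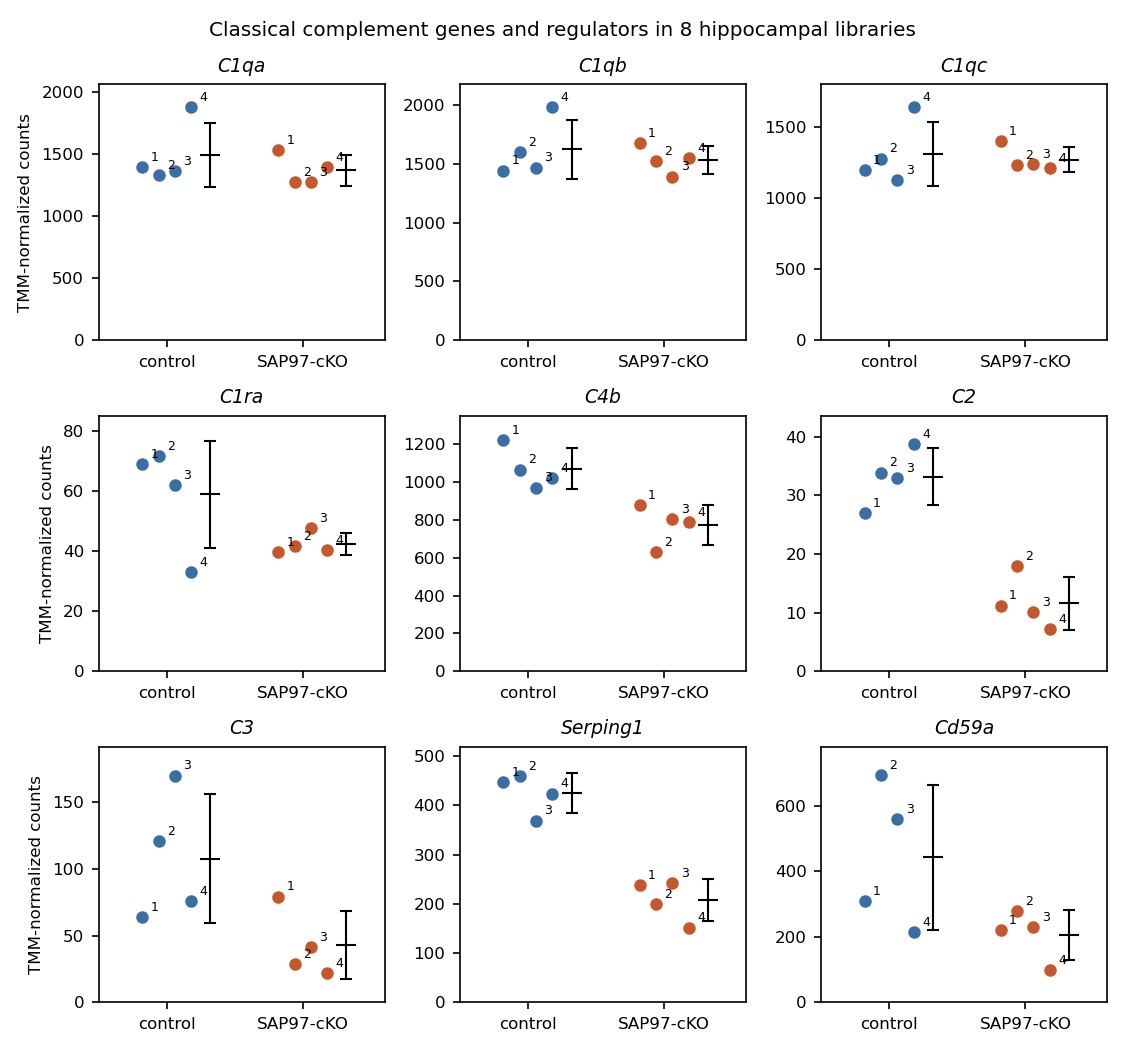
Normalized counts (linear axes from 0, TMM scaling) of the 9 complement genes in the 4 control and 4 SAP97-cKO libraries, with each library's number, the group mean and SD. The groups were fully separate for C4b, C2 and Serping1 and overlapped for the other 6 genes.

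C1q is built from A, B and C chains whose genes lie side by side on the minus strand of chromosome 4 of GRCm38. C1qa (ENSMUSG00000036887) spans 136895917 to 136898803, C1qc (ENSMUSG00000036896) 136889804 to 136893065 and C1qb (ENSMUSG00000036905) 136880129 to 136886187, each with 3 exon blocks. Of the 3 chains, C1qb and C1qc had a matched RefSeq window. The sequence just upstream of C1qb and C1qc is shown from RefSeq (GRCm38.p6, minus strand, 5′ to 3′), at chr4:136886201-136886450 and chr4:136893066-136893164. Capitals mark GAGGAA, a core of sites of the myeloid factor PU.1, read on either strand.
C1qb: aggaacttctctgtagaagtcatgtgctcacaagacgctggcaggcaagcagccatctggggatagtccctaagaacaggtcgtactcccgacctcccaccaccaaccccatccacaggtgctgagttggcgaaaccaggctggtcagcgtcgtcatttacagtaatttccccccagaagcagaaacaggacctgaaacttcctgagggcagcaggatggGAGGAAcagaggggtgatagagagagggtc
C1qc: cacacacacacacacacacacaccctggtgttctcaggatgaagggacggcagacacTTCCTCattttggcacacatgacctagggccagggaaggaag
GAGGAA lay 43 to 38 bases before the C1qb span given above, and its reverse complement 42 to 37 bases before that of C1qc. The 6 letters are common, as 23.3% of 32851 mouse promoter windows of 250 bases held them on either strand, so a match describes the sequence and nothing more. RefSeq windows were matched for 5 of the 9 genes (C1qb, C1qc, C1ra, C3 and Cd59a), and of the other 3 windows that of Cd59a also held GAGGAA.

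C1qa had 1394, 1332, 1362 and 1877 normalized counts in control replicates 1 to 4 and 1536, 1277, 1275 and 1397 in SAP97-cKO replicates 1 to 4. C1qb had 1440, 1596, 1465 and 1980 in controls and 1674, 1520, 1390 and 1544 in SAP97-cKO. C1qc had 1201, 1280, 1126 and 1640 in controls and 1401, 1232, 1240 and 1215 in SAP97-cKO. For all 3 chains control replicate 4 was the highest library, SAP97-cKO replicate 1 came next, and the groups overlapped. The log2 fold change was -0.12 for C1qa (95% interval -0.38 to 0.14), -0.08 for C1qb (-0.32 to 0.15) and -0.04 for C1qc (-0.30 to 0.21), with adjusted p of 0.673, 0.763 and 0.889 from edgeR. Each interval covers 0, so no difference was detected for C1q in this fit, and each also leaves room for a modest one in either direction. Without control replicate 4 the 3 values turned to 0.01, 0.03 and 0.08.

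The C1q chains stood in like proportions in both groups. Per length, the ratio of C1qb to C1qa was 1.04 ± 0.071 in the 4 controls and 1.07 ± 0.046 in the 4 SAP97-cKO libraries, and that of C1qc to C1qa was 0.474 ± 0.031 and 0.501 ± 0.026 (SD, n = 4 each). With the genotype mean removed, log2 values of C1qb and C1qc correlated at r = 0.93 (rho = 0.67) over the 8 libraries, and at r = 0.81 without the 2 libraries farthest from the median. C1qa correlated with C1qb at r = 0.90 (rho = 0.67) and with C1qc at r = 0.90 (rho = 0.43). Both values rest on the 2 farthest libraries, since without them r was 0.33 and 0.03.

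Microglial markers, like C1q, showed no difference that passed a test in the reported fit. The 15 markers, among them Tmem119 and P2ry12, summed to 18258 to 23992 normalized counts in controls and 17887 to 22897 in SAP97-cKO, with 0 of 15 past an unadjusted p of 0.05 in edgeR and a median log2 fold change of 0.03. The mean log2 CPM (counts scaled to library size) of the C1q chains exceeded that of the markers by 0.66, 0.64, 0.58 and 0.63 in controls and by 0.47, 0.53, 0.60 and 0.60 in SAP97-cKO. The margin was widest in control replicates 1 and 2 and narrowest in SAP97-cKO replicates 1 and 2, and the groups overlapped. Within genotype, C1qb followed the marker mean most closely (r = 0.96, rho = 0.98, and r = 0.92 without the 2 farthest libraries), while C1qa (r = 0.93, rho = 0.62) and C1qc (r = 0.92, rho = 0.69) went to 0.21 and 0.31 without those libraries.

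Of 14035 other genes with a mean of at least 1 CPM, those most like the C1q mean across the 8 libraries, genotype mean removed, were Zfp874b (r = 0.995), Dhrs4 (r = 0.995), Gpr34 (r = 0.995), Rps29 (r = 0.989) and Rps23 (r = 0.988). Gpr34, a receptor of microglia, is among the 15 microglial markers. These values, over 8 libraries that share their depth and scaling, are a description.

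C1ra (ENSMUSG00000055172; plus strand of chromosome 6, 124512405 to 124523443) encodes the protease that C1q activates first. It was scarce, with 69.0, 71.7, 62.1 and 33.0 normalized counts in controls and 39.7, 41.8, 47.6 and 40.5 in SAP97-cKO. Control replicate 4 lay below every SAP97-cKO library and the other controls lay above them. The log2 fold change was -0.47 (SE 0.25, edgeR adjusted p = 0.475), and -0.67 without control replicate 4 (adjusted p = 0.305). C1ra is 98.0% identical to its copy C1rb over 2118 aligned coding bases, and 59.7% of its 50-base coding windows occur in C1rb too, so that reads could be shared between them. C1rb was not found by symbol in the count table, so its reads could not be set beside those of C1ra.

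The partner protease C1s1, which cleaves C4 and C2, had 26.0, 53.8, 45.6 and 15.5 normalized counts in controls and 20.4, 7.96, 11.1 and 13.5 in SAP97-cKO. Control replicate 4 lay below SAP97-cKO replicate 1, so that the groups overlapped, and the log2 fold change was -1.41 (SE 0.43, edgeR adjusted p = 0.341). C1rl, a protease related to C1r, differed by -0.68 (SE 0.29, adjusted p = 0.413), and its groups did not overlap. C1s2, a copy of C1s1 with which 30.0% of 50-base windows are shared, had 5 reads in all and was not tested.

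C4b (ENSMUSG00000073418; minus strand of chromosome 17, 34728380 to 34743882) encodes C4, the first substrate of the activated C1 complex. It had 1219, 1063, 969 and 1020 normalized counts in controls and 878, 628, 803 and 785 in SAP97-cKO. Every SAP97-cKO library lay below every control. The log2 fold change was -0.47 (SE 0.11), and its adjusted p of 0.298 from edgeR missed the threshold. The exact two-sided permutation test gave an unadjusted p = 0.0286, the smallest that 70 assignments allow. Any gene whose groups do not overlap gets this value, so it adds nothing to the separation. The fold hardly moved under the alternatives tried, from -0.58 to -0.45, and from -0.52 to -0.38 with 1 library left out. The adjusted p moved in both directions. It was under the threshold in DESeq2 (0.026), with the replicate number as a block (0.141), with no scaling (0.187), with the microglia covariate (0.207), without a filter on low counts (0.238) and when control replicate 1 or SAP97-cKO replicate 1 was left out (0.189 each). It rose to 0.575 without control replicate 2, to 0.646 and 0.695 without SAP97-cKO replicate 3 and 4, and to 0.988 with the fibroblast covariate.

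Mice carry a near copy, C4a, on the same strand (chromosome 17, 34809092 to 34823464). The coding sequence of C4b is 96.1% identical to it, with 201 mismatches in 5204 aligned bases, and 35.5% of 50-base windows are the same in both. The stretch of 60 coding bases of C4b that differs most from C4a, in exon 21, shows where reads can tell them apart. It is read on the minus strand from the GRCm38 genome, at chr17:34735430-34735489 for C4b and chr17:34816086-34816145 for C4a, and capitals mark the 13 bases that differ.
C4b: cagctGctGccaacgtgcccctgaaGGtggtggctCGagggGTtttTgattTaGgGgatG
C4a: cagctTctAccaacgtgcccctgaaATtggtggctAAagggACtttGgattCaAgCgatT
C4a had 106 reads in all against 7377 for C4b, which was 0.399% to 2.38% of the reads of the pair in a library. Its normalized counts were 19.0, 13, 3.88 and 6.79 in controls and 21.4, 8.96, 16.2 and 17.6 in SAP97-cKO. These overlapped, with a log2 fold change of 0.59 (SE 0.47, edgeR adjusted p = 0.618). With the pair summed, C4 stood at -0.45 (SE 0.11, adjusted p = 0.316).

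C2 (ENSMUSG00000024371; minus strand of chromosome 17, 34862604 to 34898265) encodes the protease part of the enzyme that cleaves C3. It had 27.0, 33.9, 33.0 and 38.8 normalized counts in controls and 11.2, 17.9, 10.1 and 7.26 in SAP97-cKO. All 4 SAP97-cKO libraries lay below all 4 controls. C2 fell by 1.5 on the log2 scale (SE 0.31, edgeR adjusted p = 0.247; exact two-sided permutation p = 0.0286), the largest fold of the 9 genes on the fewest reads, 135 in controls and 46 in SAP97-cKO. The call was close to the threshold and was lost without control replicate 2, 3 or 4, without SAP97-cKO replicate 3 or 4, with DESeq2 size factors (adjusted p = 0.252), with the choroid plexus covariate (0.358) and with the fibroblast covariate (0.988, log2 fold change -0.90). The call was kept in 3 of the fits with 1 library left out (lowest adjusted p = 0.146) and in 7 of 10 other alternatives. Among these were DESeq2 (adjusted p = 0.020), the replicate number as a block (0.175), no scaling (0.187) and limma-voom (0.204). The fold stayed between -1.79 and -1.33 with 1 library left out.

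C2 reads may also belong to neighbours. Of 3872 exon bases of C2, 42.8% lie in exons of Gm20547, a gene model on the same strand that runs on from C2 into Cfb and is not used in the table, and 4.2% lie in exons of Zbtb12 on the other strand. No source used here says whether the counting was stranded. Cfb, the counterpart of C2 in the alternative pathway, lies next to it and had 51 reads in all, too few to be tested, with mean normalized counts of 8.10 in controls and 4.58 in SAP97-cKO.

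C3 (ENSMUSG00000024164; minus strand of chromosome 17, 57203970 to 57228136) encodes the component on which all complement pathways meet. It had 64.0, 121, 170 and 75.7 normalized counts in controls and 79.4, 28.9, 41.5 and 21.8 in SAP97-cKO. SAP97-cKO replicate 1 lay above control replicates 1 and 4, and the other 3 SAP97-cKO libraries lay below all controls. The log2 fold change was -1.32 (SE 0.42, edgeR adjusted p = 0.347; exact two-sided permutation p = 0.0857), and -1.79 (adjusted p = 0.189) without SAP97-cKO replicate 1. Without control replicate 1 it was -1.51 (adjusted p = 0.190). DESeq2 also called C3 (adjusted p = 0.089), as did edgeR with the microglia covariate (adjusted p = 0.241).

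Serping1 (ENSMUSG00000023224; minus strand of chromosome 2) encodes the C1 inhibitor, a serpin that inactivates C1r, C1s and the lectin pathway proteases. Its normalized counts were 448, 460, 369 and 424 in controls and 238, 200, 243 and 152 in SAP97-cKO. The lowest control stood well above the highest SAP97-cKO library. Serping1 fell by 1.03 on the log2 scale (95% interval -1.37 to -0.69, edgeR adjusted p = 0.143; exact two-sided permutation p = 0.0286), and it had the 3rd smallest p of all 16251 genes. The call was lost when control replicate 2 was left out (adjusted p = 0.424), and also when SAP97-cKO replicate 3 (0.524) or 4 (0.346) was, with log2 fold changes of -0.99, -1.11 and -0.90.

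Markers of the brain's borders moved with Serping1. The mean log2 CPM of the meningeal fibroblast markers was 3.6 to 4.36 in controls and 2.34 to 3.32 in SAP97-cKO, without overlap. The 10 border macrophage markers summed to 961 to 1320 normalized counts in controls and 719 to 1071 in SAP97-cKO. Of the 9 tested, 8 were below 0 and 0 past the FDR of 0.25. At an unadjusted p under 0.05 in edgeR 2 were lower, against 7.01% of all genes. Within genotype Serping1 correlated with the fibroblast markers at r = 0.67 (rho = 0.60) and at r = 0.33 without the 2 farthest libraries, and with the border macrophage markers at r = 0.92 (rho = 0.86) and r = 0.79. With the fibroblast marker mean in the model the log2 fold change of Serping1 was -0.58 (SE 0.26, edgeR adjusted p = 0.988), and no gene was called (232 lower and 397 higher at an unadjusted p under 0.05). Because that mean itself separates the groups, it and the genotype cannot be told apart in these libraries. In the same fit C4b stood at -0.58 (SE 0.23), C2 at -0.90 (SE 0.56) and C3 at -1.34 (SE 0.83), each with an edgeR adjusted p of 0.988. For the same reason, these folds do not tell which of the genes go with the markers.

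The 5 genes most like Serping1 among the 14035, genotype mean removed, were Timm44 (r = 0.975), Chst14 (r = 0.972), Tpm2 (r = 0.970), Crip1 (r = 0.960) and Phykpl (r = 0.956). For C4b they were Ppp1r21 (r = 0.984), Trim71 (r = 0.981), Runx2 (r = 0.980), Lix1l (r = 0.972) and Dkk3 (r = 0.969). None of these 10 genes was past the FDR of 0.25 between genotypes, with adjusted p of 0.383 or more from edgeR.

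Cd59a (ENSMUSG00000032679; plus strand of chromosome 2, 104095801 to 104115354) encodes a membrane-anchored inhibitor of the terminal pore. It varied widely within groups, with 308, 693, 558 and 214 normalized counts in controls and 220, 279, 229 and 98.6 in SAP97-cKO. Control replicate 4 lay inside the SAP97-cKO range and control replicate 2 was the highest library. The log2 fold change was -1.10 (SE 0.38, edgeR adjusted p = 0.364; exact two-sided permutation p = 0.114). Without control replicate 1 the adjusted p was 0.216, and with the replicate number as a block it was 0.053 (log2 fold change -1.06, SE 0.16). No source used here says that the numbers pair the mice.

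Choroid plexus markers, Ttr foremost, varied in the same way as Cd59a. Their mean log2 CPM was 3.49, 5.96, 5.10 and 1.67 in control replicates 1 to 4 and 2.59, 4.48, 3.54 and 0.81 in SAP97-cKO replicates 1 to 4, with the order of libraries in each group the same as for Cd59a. Within genotype Cd59a correlated with them at r = 0.98 (rho = 0.98), and at r = 0.92 without the 2 farthest libraries. With the choroid plexus mean in the model the log2 fold change of Cd59a was -0.56 (SE 0.13, edgeR adjusted p = 0.387), and with the fibroblast mean it was 0.08 (SE 0.56). Serping1 kept a log2 fold change of -0.98 (adjusted p = 0.226) with the choroid plexus mean, C2 -1.44 (adjusted p = 0.358), C4b -0.51 (adjusted p = 0.387) and C3 -1.04 (adjusted p = 0.413). In that fit C1qa stood at -0.21 (SE 0.092, edgeR unadjusted p = 0.043, adjusted p = 0.416), C1qb at -0.14 and C1qc at -0.11. Within genotype C1qa correlated with the choroid plexus markers at r = -0.78 (rho = -0.86), and at r = -0.61 without the 2 farthest libraries. Cd59b, the copy next to Cd59a on chromosome 2, shares no 50-base window with it and had mean normalized counts of 17.4 in controls and 14.9 in SAP97-cKO (edgeR adjusted p = 0.839).

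**Figure D2:**
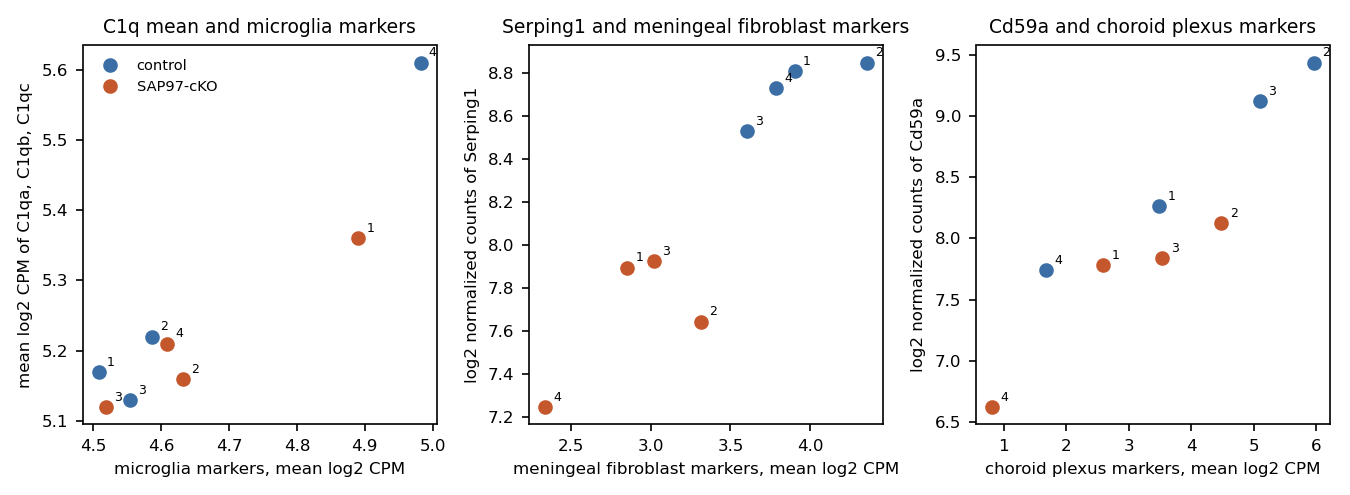
Each point is 1 library with its replicate number, control in blue and SAP97-cKO in orange, on log2 axes. The C1q mean is set against microglial markers, Serping1 against meningeal fibroblast markers and Cd59a against choroid plexus markers (marker means in log2 CPM), and the groups separate for Serping1 and its markers but overlap in the other 2 plots.

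Other cell types were compared by the same kind of lists. Oligodendrocyte markers were below 0 in 12 of 12 (8 at an unadjusted p under 0.05 in edgeR, median log2 fold change -0.49). Endothelial markers were below 0 in 12 of 12 (2 at that level, median -0.25) and blood cell markers in 5 of the 5 tested (2 at that level, median -0.55). Of all genes, 52.8% were below 0 and 7.01% were lower at that level. Astrocyte markers had a median of 0.03 (2 of 12 higher at that level), neuron markers of 0.09 (4 of 12) and hippocampal markers of 0.07 (1 of 10). Of all genes, 4.73% were higher at that level. Within genotype C3 correlated with the endothelial markers at r = 0.81 (rho = 0.86; r = 0.56 without the 2 farthest libraries) and with the oligodendrocyte markers at r = 0.74 (rho = 0.71; 0.41). With the neuron markers C3 correlated at r = -0.82 (rho = -0.83; -0.63). C4b correlated with the hippocampal markers at r = 0.88 (rho = 0.83; 0.76) and C2 at r = -0.93 (rho = -0.88; -0.75). The part of these cell types in the C3, C4b and C2 values was not tested.

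Per length, the 9 transcripts spanned a wide range of levels. In CPM per kilobase of exon, controls had 39.8 ± 6.12 (SD, n = 4) of C1qb, 38.4 ± 6.64 of C1qa and 18.2 ± 3.15 of C1qc, followed by 6.55 ± 3.26 of Cd59a, 5.02 ± 0.508 of C4b, 4.89 ± 0.466 of Serping1, 0.559 ± 0.251 of C3, 0.529 ± 0.160 of C1ra and 0.229 ± 0.034 of C2. C1qb and C1qa did not differ beyond their spread, nor did Cd59a, C4b and Serping1, nor C3 and C1ra. In SAP97-cKO the corresponding levels were 37.7 ± 2.86 (SD, n = 4), 35.3 ± 3.18, 17.6 ± 1.2, 3.05 ± 1.13, 3.63 ± 0.493, 2.40 ± 0.488, 0.223 ± 0.134, 0.380 ± 0.032 and 0.080 ± 0.031. There C4b stood above Cd59a in mean and C1ra above C3, and in both pairs the libraries overlapped. C2, the least abundant, rested on 181 reads over the 8 libraries.

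**Figure D3:**
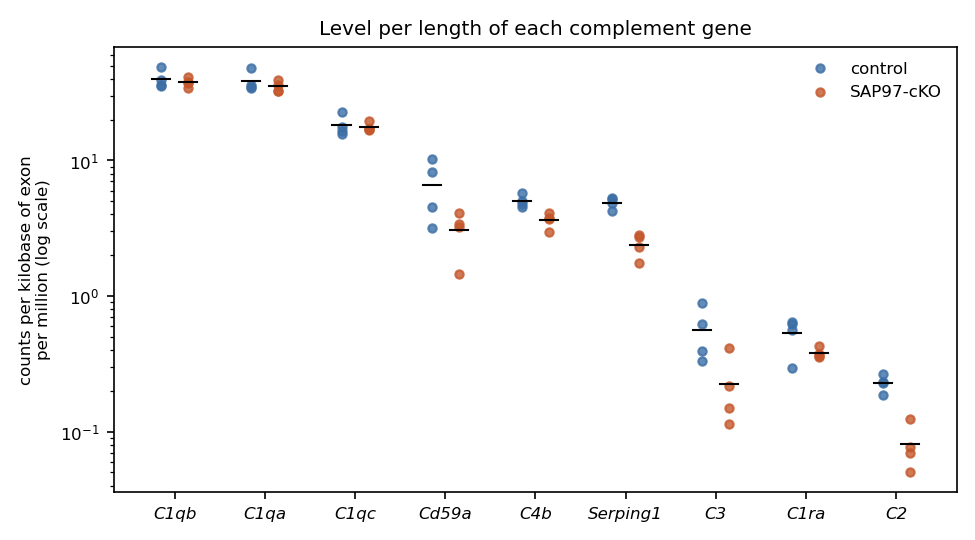
Level per length of the 9 genes (CPM per kilobase of exon, log axis), 1 point per library, with a bar at each group mean. The C1q chains lie between 15.6 and 48.7 in all 8 libraries, and C2 lies between 0.050 and 0.268.

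Beyond the 9, the table held 48 other complement genes of a list of 56, and 35 of them had enough reads to be tested. None was past the FDR of 0.25 in edgeR, or in limma-voom, which called 0.295% of all genes lower and 0.0123% higher. DESeq2 called 7 lower and 5 higher, and 3.62% and 2.74% of all genes. At an unadjusted p under 0.05 in edgeR 9 were lower and 5 higher, against 7.01% and 4.73% of all genes. The median log2 fold change was 0.03, with 17 below 0 and 18 above. The groups did not overlap for 4 lower genes, C1rl, Colec12 and Vtn among them, and for 2 higher genes, Cd46 and Csmd2, of the 35, against 3.47% and 2.78% of all genes, and for Serping1, C4b and C2 among the 9 genes (3 of 9, against the same 3.47%).

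Of the 5 soluble regulators tested besides Serping1, 2 were lower at an unadjusted p under 0.05 in edgeR and none was higher, against 7.01% and 4.73% of all genes. Vtn, vitronectin, which binds the terminal complex, had 2055, 2176, 1859 and 2218 normalized counts in controls and 1561, 1467, 1550 and 911 in SAP97-cKO. Every SAP97-cKO library lay below every control, and the log2 fold change was -0.60 (SE 0.15, edgeR adjusted p = 0.316), which missed the threshold. Clu, clusterin, the most abundant of the group per length, stood at 265 in controls and 246 in SAP97-cKO.

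Membrane regulators went in both directions. Cd55, which breaks up the enzymes that cleave C3, had a mean of 332 normalized counts in controls and 233 in SAP97-cKO (log2 fold change -0.51, edgeR adjusted p = 0.316), and the related Cr1l had 849 and 734 (-0.21, adjusted p = 0.371). Above 0 were Cd46, with 34.5 and 56.9 (0.72, adjusted p = 0.365), and the neuronal CUB and sushi domain genes Csmd1 (0.38, adjusted p = 0.383), Csmd2 (0.44, adjusted p = 0.361), Csmd3 (0.34, adjusted p = 0.383) and Sez6 (0.33, adjusted p = 0.331). For Csmd2 the controls had 1497, 1243, 1407 and 854 and the SAP97-cKO libraries 1710, 1565, 1611 and 1885. Neuron markers had 4 of 12 above 0 at an unadjusted p under 0.05 in edgeR, against 4.73% of all genes. The part of the neuron markers in these values was not tested. Sez6l2 was the most abundant of this group per length, at 79.2 in controls and 84.1 in SAP97-cKO.

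Among receptors, C5ar1, the receptor of the C5a fragment, had a mean of 26.1 normalized counts in controls and 13 in SAP97-cKO (log2 fold change -1.0, edgeR adjusted p = 0.348), and Calr, calreticulin, which binds C1q and was the most abundant per length at 137 and 115, stood at -0.25 (adjusted p = 0.365). Colec12, a scavenger receptor counted with the lectin genes, had 469 and 280 (-0.74, adjusted p = 0.347) and was the most abundant lectin gene per length, at 1.44 and 0.86. Cfp, properdin, was the one tested gene of the alternative pathway, at 0.993 and 0.958 per length. C8g led the terminal components at 0.342 and 0.354.

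**Figure D4:**
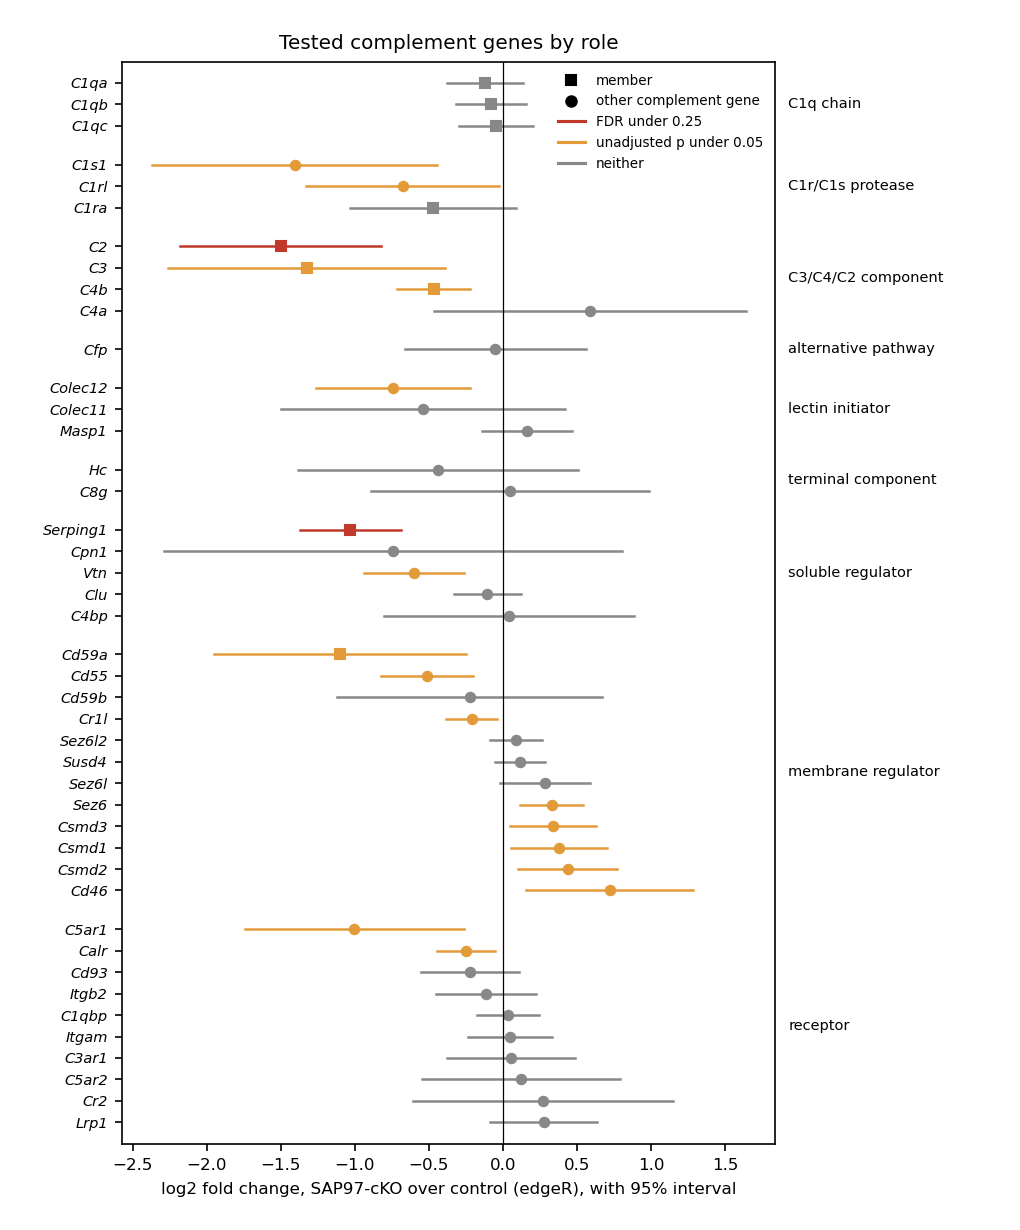
Log2 fold change, SAP97-cKO over control, of complement genes tested, grouped by role, with 95% intervals from edgeR. Squares mark the 9 genes described first and circles other complement genes, of which 1 is not shown. Only C2 and Serping1 are past the FDR of 0.25 (red), and the C1q chains lie near 0.

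The direction of the 9 fold changes depended little on the test or scaling. Serping1, C2, C4b, C3 and C1ra stayed below 0 in every alternative fit tried, Cd59a in all but that with the fibroblast covariate, and the C1q chains in all but that without control replicate 4. The number past the FDR of 0.25 depended on it more, from 0 to 5 of the 9, and none was called higher in any fit tried. The 5 came from the fit without control replicate 1, in which 5.83% of all genes were called lower and 4.34% higher.

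**Figure D5:**
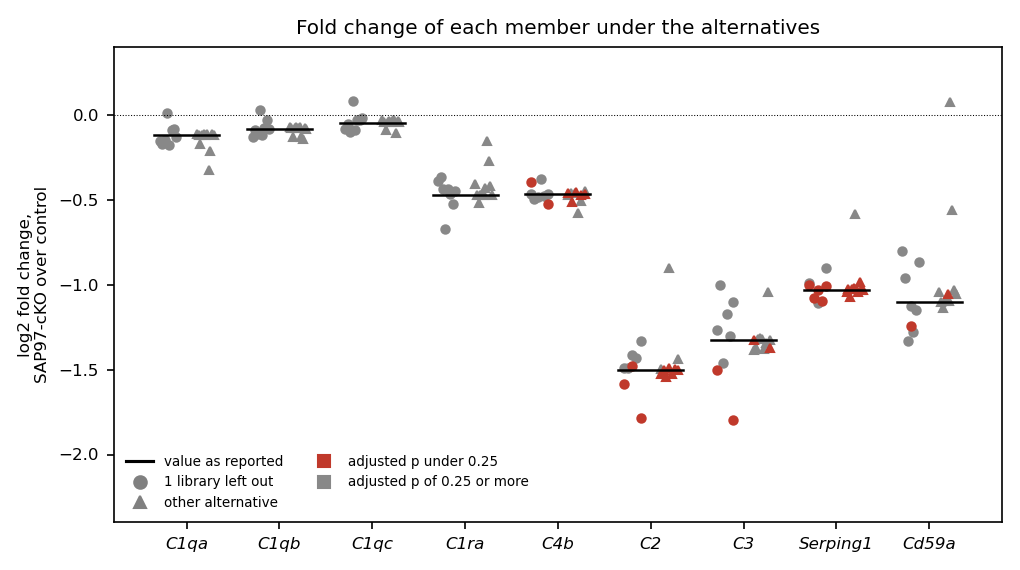
Log2 fold change of each of the 9 genes under the alternatives, with circles for fits that leave out 1 library, triangles for the others and a bar at the reported value. Red marks an adjusted p under 0.25. Serping1 is red in most fits and the C1q chains in none.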

How the data were processed

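RNA of 8 male hippocampi, 4 control and 4 SAP97-cKO, was sequenced on an Illumina instrument. The authors aligned reads to GRCm38 with STAR 2.5.3a, removed ribosomal and mitochondrial reads, resampled the rest to equal depth and counted reads per Ensembl gene. The deposited values are these whole-number counts. The same table holds the authors' fold changes, p-values and q-values, which were not used. Samples were grouped by their titles. The 9 genes, the complement list and the marker lists were chosen with earlier results of these data known.

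Counts were tested with edgeR 4.0.16 (R 4.3.3), using filterByExpr (minimum count 10, minimum total 15), TMM factors (0.964 to 1.03), the quasi-likelihood test and Benjamini-Hochberg adjustment over 16251 genes, with the study's FDR threshold of 0.25. The other 9583 genes had too few reads. Normalized counts are scaled to the geometric mean of the effective library sizes, which are the totals over tested genes times the TMM factors. A constant of 0.5 was added to normalized counts in the exact two-sided permutation test over 70 assignments. The prior count of log2 CPM was 2. Marker and likeness values use log2 CPM. The scripts were tested on simulated counts. Named genes were the 9, their near copies or neighbours, other complement genes at an unadjusted p under 0.05, the most abundant gene of each role per length, Dlg1, and the 5 genes most like Serping1, C4b and the C1q mean. Alternatives were limma-voom (limma 3.58.1), DESeq2 1.42.0, other scalings and filters, an FDR of 0.05, marker covariates, summed copies, a replicate block and each library left out. No library was a copy of another, as the chi-square per gene between libraries was 9.68 to 72.6 and counting noise alone gives about 1. Each library came from 1 mouse. Gene models are from GENCODE M21, which matched 25696 of the 25834 identifiers. Some results on single genes are not reported here.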

Additional observations from a re-analysis of the deposited data

Results flagged for a closer look

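In control replicate 4 C1qa had 1877 normalized counts and stood apart from the other 3 controls. On a log scale the gap to the nearest was 0.866 of the group's range. In SAP97-cKO replicate 1 C1qc had 1401 normalized counts and stood apart from the other 3 SAP97-cKO libraries, with a gap of 0.86 of the range on a log scale. Both gaps exceed Dixon's 95% critical value for 4 samples. Chance marks about 1 in 20 groups, and 18 were tested. The same 2 libraries had the highest microglial marker means, at 4.98 and 4.89 log2 CPM.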

How the results depend on the processing

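Counts are given for the 9 genes lower, then all genes lower and higher, then other complement genes lower and higher. The reported counts were 2, 46, 2, 0 and 0, and limma-voom (2, 48, 2, 0 and 0) and summed copies (2, 46, 2, 0 and 0) barely moved them. They were 4, 588, 445, 7 and 5 in DESeq2, 4, 574, 523, 7 and 5 with the microglia covariate, 3, 94, 1, 0 and 0 with no scaling, 3, 89, 15, 1 and 0 with no filter, 1, 33, 2, 0 and 0 with DESeq2 size factors in edgeR, 1, 33, 2, 0 and 0 with at least 10 counts in every library (C2 then dropped out), 1, 15, 1, 0 and 0 with the choroid plexus covariate, and 0 for each with the fibroblast covariate (232 lower and 397 higher genes at an unadjusted p under 0.05 in edgeR) and at an FDR of 0.05 (1139 and 768 at that p). With 1 library left out they ranged from 0 to 5 for the 9 genes, 0 to 960 for all genes lower, 0 to 715 higher, 0 to 5 for other complement genes lower and 0 to 6 higher. They were 5, 960, 715, 5 and 6 without control replicate 1 and 4, 450, 261, 5 and 1 without SAP97-cKO replicate 1, and 0 for each without control replicate 2, SAP97-cKO replicate 3 or SAP97-cKO replicate 4 (818 lower and 585 higher, 711 and 548, and 614 and 553 genes at an unadjusted p under 0.05 in edgeR). The cause was not tested. Leaving out control replicate 4 turned C1qa to 0.0095 (lowest value with another library left out -0.17), C1qb to 0.030 (-0.13) and C1qc to 0.082 (-0.10), and the fibroblast covariate turned Cd59a to 0.076. The call of Serping1 was kept in 5 of 8 fits with 1 library left out, with adjusted p from 0.125 to 0.524.

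The replicate block gave counts of 4, 234, 22, 4 and 0. Correlations of same-numbered libraries were -0.062, 0.201, 0.090 and 0.259, and those of differently numbered libraries ranged from -0.372 to 0.259. Control replicates 2, 3 and 4 correlated best with their own number, and control replicate 1 did not. These values do not settle whether the numbers pair the mice, and no source used here says so. With 4 mice a group, the spread between mice limits the precision, and C2 and C1ra also had few reads. In the reported edgeR fit every adjusted p was at or above 0.143, so that calls rest on the loose threshold of 0.25.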
